A study of Homo sapiens with 6 samples.

Results

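The 10 genes described here encode the machinery of the G1 phase of the cell cycle: the D-type cyclins CCND1 and CCND3, the kinases CDK4, CDK6 and CDK2, the inhibitors CDKN1B (p27), CDKN1C (p57) and CDKN2C (p18), the retinoblastoma protein RB1 and the transcription factor E2F1. They were listed by name for their place in this pathway, with earlier results of these data known, and each matched 1 of the 60604 genes in the deposited count tables. All 10 had enough counts to be among the 17200 genes tested. Total RNA was sequenced from AGS, an established line that derives from an adenocarcinoma of the human stomach, in 3 libraries of cells labelled with 0 mM indomethacin (control) and 3 libraries of cells given 0.5 mM indomethacin for 24 h. Indomethacin is a non-steroidal anti-inflammatory drug that inhibits cyclooxygenases, and the series asks how such drugs act on gastric cells. The labels give neither a time nor a solvent for the control cells, and both groups are of the 1 line, so no second line or untransformed cell was compared. Whether replicates were grown as separate cultures is not stated, so each p-value rests on library-to-library spread that may be technical.

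In G1, D-type cyclins made in response to growth signals bind CDK4 or CDK6 and start the phosphorylation of RB1. RB1 and its relatives RBL1 and RBL2, the pocket proteins, hold E2F transcription factors in check, and phosphorylation releases them to switch on cyclin E, E2F1 itself and the genes of DNA replication. Cyclin E with CDK2 then carries the phosphorylation further. Inhibitors of the INK4 family, such as CDKN2C, bind CDK4 and CDK6, while those of the Cip/Kip family, CDKN1A, CDKN1B and CDKN1C, bind cyclin-CDK complexes and block CDK2 above all. In epithelial tumours of the gut, cyclin D1 is known as a gene that Wnt and growth factor signals raise.

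Libraries held from 17535435 to 23221077 counts. At these depths 3 counts, the limit for a gene with none, correspond to 0.129 to 0.171 CPM (counts per 1000000). Levels are given as CPM scaled by TMM factors, in the order of the replicate numbers, and log2 fold changes are indomethacin over control. The epithelial label held: the summed level of 8 epithelial markers, EPCAM and keratin genes among them, was between 3317 and 3812 CPM in control and between 2973 and 3414 CPM in indomethacin libraries. Of the markers of other cell types, 4 of 6 fibroblast, 5 of 6 leukocyte and 4 of 4 endothelial genes stayed under 0.5 CPM in every library. The summed levels went from a range of 6.52 to 8.62 CPM in control to 9.67 to 11.5 CPM with indomethacin for the fibroblast list, and from 599 to 1367 CPM down to 118 to 125 CPM for the leukocyte list. The part of either in the results below was not tested. The lysozyme gene LYZ, the leukocyte marker above that level, also belongs to gastric epithelium. The fibroblast genes above that level, COL1A1 and PDGFRB, moved in opposite directions. Mean COL1A1 went from 4.93 CPM in control to 10.0 CPM with indomethacin, and mean PDGFRB from 2.52 to 0.104 CPM.

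Promoter sequences were searched for exact words of binding sites, among them those of the loop in which E2F factors act on their own gene. RefSeq promoter windows on build GRCh38.p14, from 250 bases before to 50 bases after a transcription start, were found for 7 of the 10 genes, in 12 windows, and not for CCND1, CDK2 and CDKN1C. They were searched on both strands. An E2F site was any of TTTCCCGC, TTTCGCGC, TTTGCCGC and TTTGGCGC. An E-box was the palindrome CACGTG, which factors of the MYC family bind. A CCAAT box was that word itself, the site of the factor NF-Y. A GC box was the word GGGCGG, the site of the factor SP1. No E2F word overlapped a word of another kind in the E2F1 window, and among the GC boxes of the CDKN2C window the first pair share bases. The windows of E2F1, of CDK4 and of the second start of CDKN2C are shown, 5′ to 3′ on the strand of the gene, as examples. GC boxes occur in each of them, and the other kinds of motif differ.
E2F1 (chr20:33686336-33686635, minus strand; E2F sites and CCAAT boxes in capitals): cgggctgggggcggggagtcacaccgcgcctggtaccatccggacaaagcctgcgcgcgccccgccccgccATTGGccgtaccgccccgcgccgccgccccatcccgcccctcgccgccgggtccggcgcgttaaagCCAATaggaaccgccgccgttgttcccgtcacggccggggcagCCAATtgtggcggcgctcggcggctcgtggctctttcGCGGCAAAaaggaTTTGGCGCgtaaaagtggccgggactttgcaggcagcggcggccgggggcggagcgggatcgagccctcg
CDK4 (chr12:57752261-57752560, minus strand; E-boxes in capitals): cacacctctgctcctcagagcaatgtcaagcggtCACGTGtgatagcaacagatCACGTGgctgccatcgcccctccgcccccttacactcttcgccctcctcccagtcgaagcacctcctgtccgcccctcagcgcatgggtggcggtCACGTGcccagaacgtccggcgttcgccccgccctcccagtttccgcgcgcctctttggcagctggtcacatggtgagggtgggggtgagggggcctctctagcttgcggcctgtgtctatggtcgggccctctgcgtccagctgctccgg
CDKN2C (chr1:50968456-50968755, plus strand; GC boxes in capitals): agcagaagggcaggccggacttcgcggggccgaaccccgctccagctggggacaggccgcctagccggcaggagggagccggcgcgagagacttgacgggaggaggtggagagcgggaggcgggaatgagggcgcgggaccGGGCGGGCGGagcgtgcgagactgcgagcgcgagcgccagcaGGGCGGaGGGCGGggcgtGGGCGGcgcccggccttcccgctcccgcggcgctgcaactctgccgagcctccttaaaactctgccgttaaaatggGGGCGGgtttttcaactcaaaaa
The E2F1 window held 2 E2F sites, which begin 33 and 20 bases before the start, together with 3 CCAAT boxes and 6 GC boxes. It was the 1 window of the 12 with an E2F word, which 3.31% of all 35116 windows in the table hold. The CDK4 window held 3 E-boxes and 3 GC boxes, and an E-box is a word that 7.26% of all windows hold. The printed CDKN2C window held 6 GC boxes and no word of the other kinds, and 45.0% of all windows hold a GC box. CDKN1B, like E2F1, had 3 CCAAT boxes, a word found in 34.6% of all windows. A match describes the letters and is no evidence that a factor was bound. A window without a word may still hold a variant of the site, which was not searched for.

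Both D-type cyclins, all 3 kinases, E2F1 and CDKN2C fell with indomethacin, while CDKN1B, CDKN1C and RB1 did not pass the test. The falls ran from 1.55-fold for CDK4 to 8.97-fold for CDKN2C. By edgeR's quasi-likelihood test, with a threshold of 0.05 on p-values adjusted over all genes tested, 7 of the 10 genes passed, all 7 as lower. In the same test 61.6% of all genes passed, 31.0% lower and 30.6% higher. Falls of at least 2-fold were found for 6 of the 10 genes, against 15.6% of all genes tested. The median log2 fold change was -1.15 over the 10 genes and 0.04 over all genes tested. The groups did not overlap for 7 of the 10 genes, the same 7 that passed, and for 67.0% of all genes tested. These are bulk samples, in which fewer cells that express a gene and less RNA per cell cannot be told apart.

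**Figure D1:**
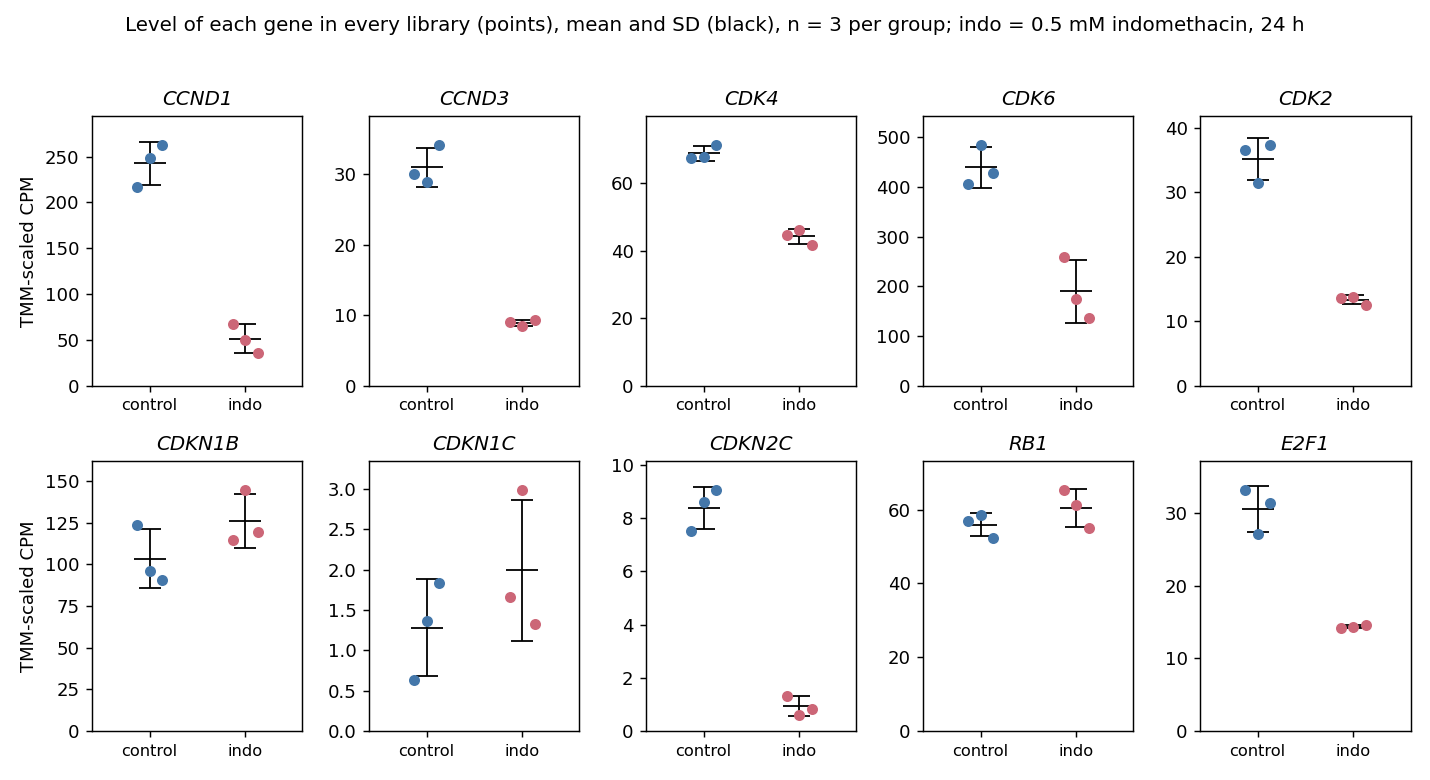
TMM-scaled CPM (vertical axis, from 0) of each of the 10 genes in every control (blue) and indomethacin (red) library, with the mean and SD in black (n = 3 per group). The points of the groups are apart for CCND1, CCND3, CDK4, CDK6, CDK2, CDKN2C and E2F1 and overlap for CDKN1B, CDKN1C and RB1.

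CCND1 encodes cyclin D1, which couples growth signals to CDK4 and CDK6 (identifier ENSG00000110092, chromosome 11, 69641156 to 69654474, plus strand, hg38). It was at 217, 248 and 263 CPM in the control libraries and at 67.6, 50.3 and 36.1 CPM in the indomethacin libraries. The highest indomethacin library lay far below the lowest control library, yet the indomethacin libraries differed among themselves, with a coefficient of variation of 30.8% against 9.62% in control. The fall was 4.72-fold (log2 fold change -2.24, SE 0.18; edgeR adjusted p = 1.5e-07). Only 4.26% of all genes tested had a log2 fold change as low or lower. Its exons share 497 of 4761 bases with LTO1 on the other strand.

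CCND3 encodes cyclin D3, the D-type cyclin best known from lymphoid cells (chromosome 6, 41934934 to 42050357, minus strand). It was at 30.0, 28.8 and 34.1 CPM in control and at 8.98, 8.40 and 9.25 CPM in indomethacin libraries. The indomethacin libraries were close to each other and all far below control. The fall was 3.49-fold (log2 fold change -1.80, SE 0.13; edgeR adjusted p = 4.5e-08). The remaining D-type cyclin gene, CCND2, was nearly silent, with 28 counts in the control libraries together and 1 with indomethacin. Control was 24.8 times indomethacin, and the 95% interval for that ratio, 4.11 to 1016, covers counting error only.

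Per kilobase of exons, cyclin D1 made up most of the D-type cyclin RNA in both groups. Its share of the summed CPM per kilobase of CCND1, CCND2 and CCND3 was 89.7%, 91.2% and 90.2% in control and 90.1%, 87.9% and 82.4% in indomethacin libraries. Indomethacin replicate 1 lay within the control range and the other two below it. The means were 90.3% ± 0.753 and 86.8% ± 3.94 (SD, n = 3; two-sided exact permutation p = 0.2), a difference within the spread between libraries. Exact permutation tests of 3 against 3 libraries cannot go below p = 0.1, so no share compared here could pass a threshold of 0.05. Cyclin D1 and cyclin D3 were lower side by side.

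CDK4 and CDK6 are the partners of the D-type cyclins. CDK4 (chromosome 12, 57747727 to 57756013, minus strand) was at 67.4, 67.9 and 71.4 CPM in control and at 44.8, 46.3 and 41.9 CPM in indomethacin libraries, a fall of 1.55-fold (log2 fold change -0.64, SE 0.10; edgeR adjusted p = 8.5e-05). The replicates of both groups lay close together, and this was the smallest of the 7 falls. CDK4 shares 1369 of its 3094 exonic bases with TSPAN31 on the other strand. TSPAN31 itself was at 18.8 ± 0.975 and 16.7 ± 1.28 CPM and did not pass (log2 fold change -0.17; edgeR adjusted p = 0.26), and how reads of the shared bases were counted is not given in the sources used here, so the CDK4 value is uncertain.

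CDK6 (chromosome 7, 92604921 to 92836573, minus strand) was at 405, 485 and 428 CPM in control and at 259.5, 174 and 136 CPM in indomethacin libraries. As with CCND1, the indomethacin libraries were spread out (coefficient of variation 33.2%), with replicate 1 highest and replicate 3 lowest in both genes. Total counts ran in the same order, 20094302, 19323461 and 17535435, and the part of depth in this spread was not tested. By contrast the coefficient of variation over the indomethacin libraries was 4.89% for CCND3, 5.06% for CDK4, 5.09% for CDK2 and 1.46% for E2F1. For CDKN2C, which also fell and had few counts with indomethacin, it was 40.5%. The fall of CDK6 was 2.31-fold (log2 fold change -1.21, SE 0.18; edgeR adjusted p = 6.1e-05). Per kilobase, CDK6 was 60.3%, 64.3% and 60.3% of CDK4 and CDK6 together in control and 59.4%, 48.8% and 45.2% in indomethacin libraries. All 3 indomethacin libraries were below control, replicate 1 by a small margin (means 61.6% ± 2.35 and 51.1% ± 7.42, n = 3; two-sided exact permutation p = 0.1).

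CDK2, the partner of cyclins E and A (chromosome 12, 55966781 to 55972789, plus strand), was at 36.6, 31.4 and 37.3 CPM in control and at 13.7, 13.8 and 12.6 CPM in indomethacin libraries. The fall was 2.63-fold (log2 fold change -1.40, SE 0.12; edgeR adjusted p = 3.3e-07), and 89 of 3887 exonic bases lie against PMEL on the other strand. Its cyclins, from the list of other G1 cyclins and kinases, fell too. CCNE1 (cyclin E1) went from 38.9 ± 3.69 to 17.6 ± 2.11 CPM, a log2 fold change of -1.14, and CCNA2 (cyclin A2) from 97.0 ± 8.95 to 12.3 ± 4.88 CPM, a log2 fold change of -3.00. CCNE2 and the mitotic kinase gene CDK1 had log2 fold changes of -1.93 and -3.18. CCNE2 shares 1629 of 4397 exonic bases with INTS8 on the other strand and is uncertain. All 4 genes of this list that were tested, of 6 listed, fell, with adjusted p-values by edgeR of 3.6e-06 or less. Over all genes tested 31.0% were lower.

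**Figure D2:**
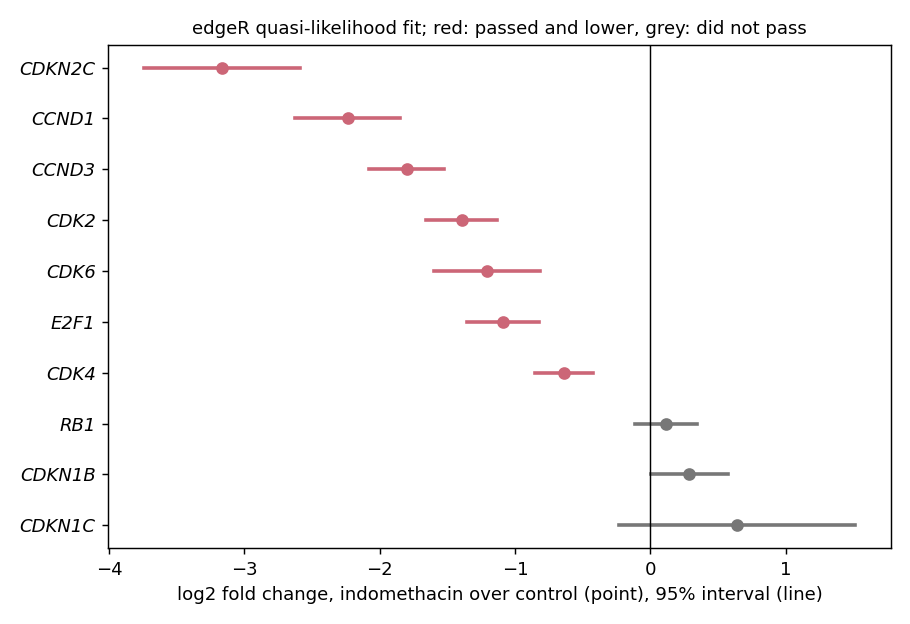
Log2 fold change of indomethacin over control (point) with its 95% interval from the edgeR fit (line) for each of the 10 genes. The 7 intervals in red lie below 0, from CDKN2C at -3.17 to CDK4 at -0.64, and the 3 in grey belong to genes that did not pass.

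CDKN2C encodes the INK4 inhibitor p18 (identifier ENSG00000123080, chromosome 1, 50960745 to 50974634, plus strand). It is an inhibitor, yet it had the lowest log2 fold change of the 10 genes. It was at 7.50, 8.62 and 9.05 CPM in control and at 1.33, 0.597 and 0.841 CPM in indomethacin libraries, where it rested on 28, 12 and 14 counts. The fall was 8.97-fold (log2 fold change -3.17, SE 0.27; edgeR adjusted p = 2.4e-07), and 1.76% of all genes tested were as low or lower. The promoter window printed above with 6 GC boxes belongs to this gene.

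The other INK4 genes did not follow it. CDKN2B (p15), the most abundant of them, was at 56.8 ± 8.06 CPM in control and 84.0 ± 25.8 CPM in indomethacin libraries (log2 fold change 0.57, edgeR adjusted p = 0.018), but the groups overlapped. CDKN2D (p19) was at 1.78 ± 0.361 and 3.06 ± 0.954 CPM (0.77, edgeR adjusted p = 0.041), also with overlap, and both calls were lost when some single libraries were left out: without control replicate 1 the adjusted p was 0.11 for CDKN2B and 0.14 for CDKN2D, without indomethacin replicate 2 it was 0.081 and 0.12. Without indomethacin replicate 1 the adjusted p of CDKN2B was 0.10, and without control replicate 3 or indomethacin replicate 3 that of CDKN2D was 0.11 and 0.15, and it did not pass with DESeq2, limma-voom or no filter either (0.056 to 0.11). CDKN2A (p16 and p14ARF) had 2 counts in control and 8 with indomethacin in all, 4.51 times as much (95% interval for counting error 0.900 to 43.6), and 593 of its 3885 exonic bases lie against CDKN2B-AS1. Per kilobase the share of CDKN2C in the INK4 family was 16.2%, 14.4% and 15.5% in control and 1.58%, 0.775% and 1.68% in indomethacin libraries. The ranges were far apart (means 15.4% ± 0.877 and 1.34% ± 0.494, n = 3; two-sided exact permutation p = 0.1).

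CDKN1B encodes p27, which holds cyclin E-CDK2 inactive in resting cells and is controlled largely by protein degradation (identifier ENSG00000111276, chromosome 12, 12685498 to 12722369, plus strand). It was at 123, 96.3 and 90.4 CPM in control and at 115, 145 and 119 CPM in indomethacin libraries. Control replicate 1 lay above indomethacin replicates 1 and 3, so the groups overlapped. The log2 fold change was 0.29 (95% interval 0.0020 to 0.57; edgeR adjusted p = 0.075). It did pass, as higher, without control replicate 1 (log2 fold change 0.38, edgeR adjusted p = 0.025), with upper-quartile factors (0.40, 0.020) and with a filter of 1 CPM in 3 libraries (0.33, 0.043), and over all alternatives the adjusted p ran from 0.020 to 0.37.

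CDKN1C encodes p57, an imprinted inhibitor expressed from the maternal chromosome (chromosome 11, 2883213 to 2885775, minus strand). It was at 0.638, 1.36 and 1.83 CPM in control and at 1.66, 2.98 and 1.32 CPM in indomethacin libraries, from 13 to 60 counts per library. The groups overlapped and the test did not pass (log2 fold change 0.64, 95% interval -0.23 to 1.51; edgeR adjusted p = 0.19). The interval of the fit runs from a fall to a rise of more than 2-fold. Counting error alone, over 84 control and 117 indomethacin counts, gives a ratio of 1.57 with a lower 95% bound of 1.18, while the libraries of a group varied by 47.0% and 44.1% (coefficient of variation), so the difference lies within the spread between libraries.

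The third Cip/Kip gene, CDKN1A (p21), a target of p53, rose and was the most abundant of the family. It went from 175 ± 9.09 to 490.1 ± 42.4 CPM (edgeR adjusted p = 6.7e-08), a log2 fold change of 1.48. Per kilobase, CDKN1B was 17.9%, 15.8% and 14.0% of the Cip/Kip RNA in control and 7.73%, 8.33% and 6.93% in indomethacin libraries. Every indomethacin library was below every control library (means 15.9% ± 1.98 and 7.66% ± 0.703, n = 3; two-sided exact permutation p = 0.1). CDKN3, listed with the inhibitors but a phosphatase that acts on CDKs, fell from 64.6 ± 6.37 to 10.4 ± 1.52 CPM (log2 fold change -2.63). Of the 4 genes tested in this list of 5 other inhibitors, 3 were higher and CDKN3 was lower. Over all genes tested 30.6% were higher and 31.0% lower. The 3 higher calls became 1 without control replicate 1 or without indomethacin replicate 2.

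**Figure D3:**
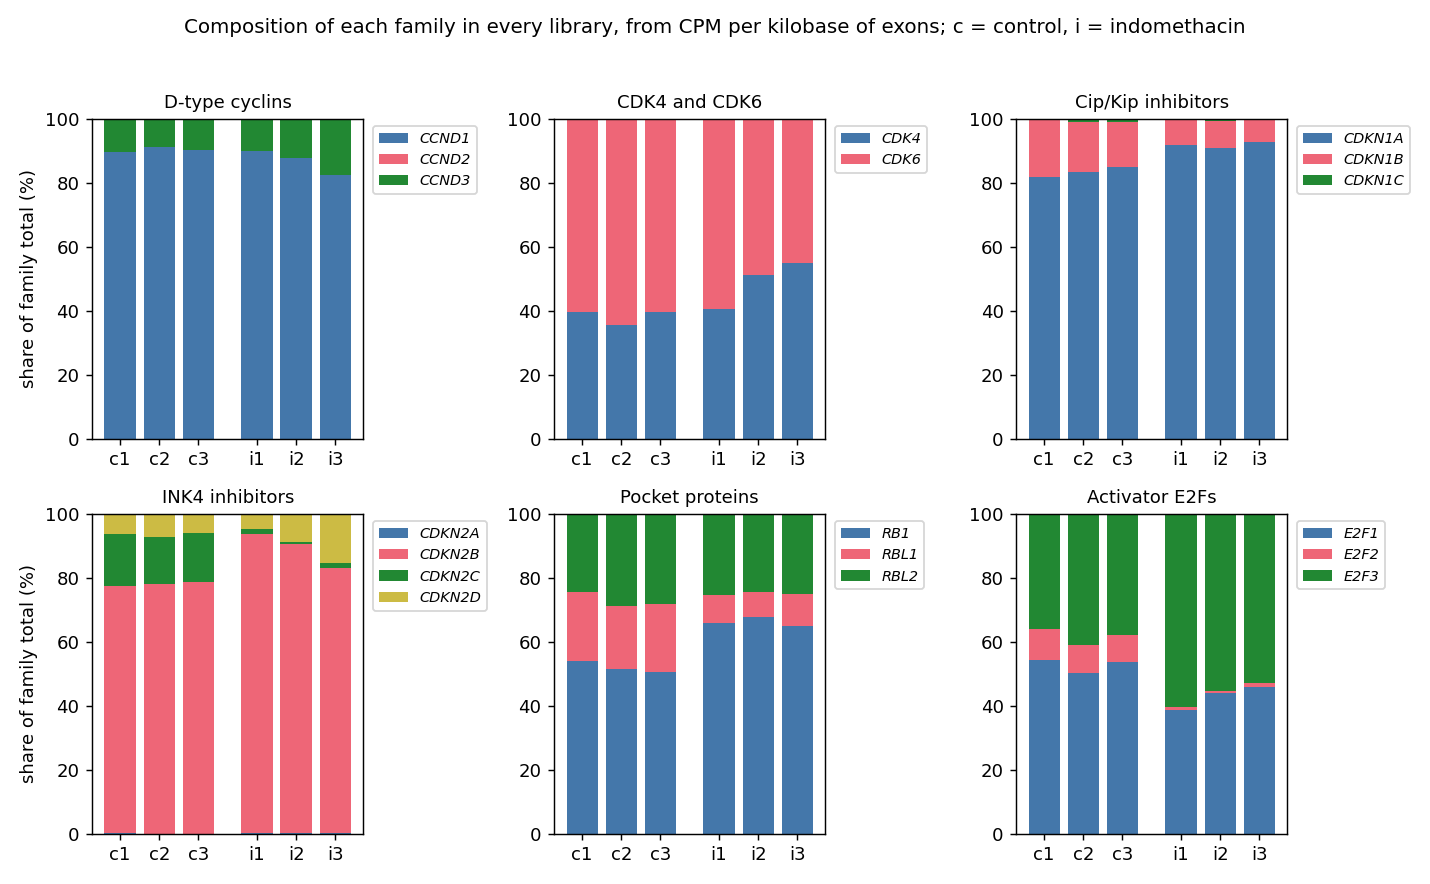
Share of each gene in the summed CPM per kilobase of its family (stacked bars, percent, adding to 100) in the 3 control (c1 to c3) and 3 indomethacin (i1 to i3) libraries. CDKN2C shrinks from 15.4% of the INK4 family on average to 1.34%, while RB1 grows from 52.0% to 66.2% of the pocket proteins.

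RB1 encodes the retinoblastoma protein, the substrate that D-type cyclin kinases act on (identifier ENSG00000139687, chromosome 13, 48303744 to 48599436, plus strand). It was at 56.9, 58.6 and 52.4 CPM in control and at 65.3, 61.4 and 55.1 CPM in indomethacin libraries, and the groups overlapped. The log2 fold change was 0.11 (95% interval -0.11 to 0.34; edgeR adjusted p = 0.37), so a change of more than 0.34 upward or 0.11 downward on the log2 scale lies outside the interval. Its relative RBL1 (p107), itself an E2F target, fell from 20.8 ± 0.281 to 7.49 ± 0.896 CPM (log2 fold change -1.48; edgeR adjusted p = 6.7e-07). RBL2 (p130), the pocket protein of resting cells, went from 36.8 ± 4.56 to 28.8 ± 2.50 CPM (-0.35; edgeR adjusted p = 0.023), but did not pass with upper-quartile factors (edgeR adjusted p = 0.11) or without control replicate 2 (0.088), indomethacin replicate 2 (0.073) or indomethacin replicate 3 (0.053). It shares 609 of 8110 exonic bases with AKTIP on the other strand.

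Per kilobase the share of RB1 in the pocket proteins was 54.2%, 51.4% and 50.5% in control and 65.9%, 67.9% and 64.9% in indomethacin libraries. The ranges did not overlap (means 52.0% ± 1.93 and 66.2% ± 1.56, n = 3; two-sided exact permutation p = 0.1). RBL1 was 20.9% ± 0.912 and 8.86% ± 1.14 of the family.

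E2F1, the founding activator of the E2F family (identifier ENSG00000101412, chromosome 20, 33675477 to 33686385, minus strand), was at 33.2, 27.1 and 31.5 CPM in control and at 14.2, 14.3 and 14.6 CPM in indomethacin libraries. The indomethacin values were nearly equal and below control in 3 of 3 libraries. The fall was 2.13-fold (log2 fold change -1.09, SE 0.12; edgeR adjusted p = 3.7e-06). Its promoter, shown above, was the 1 member window with an exact match to an E2F word. The other activators differed from it in size: E2F2 went from 10.6 ± 1.32 to 0.676 ± 0.262 CPM (log2 fold change -3.99, edgeR adjusted p = 2.1e-08), and E2F3 was at 42.6 ± 0.306 and 36.6 ± 5.39 CPM (-0.22, edgeR adjusted p = 0.13). E2F3 did pass, as lower, without indomethacin replicate 1 (edgeR adjusted p = 0.013) and with no filter (0.043).

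Per kilobase, E2F1 was 54.4%, 50.2% and 53.7% of the 3 activators in control and 38.8%, 44.0% and 45.8% in indomethacin libraries. Here too the ranges were apart (means 52.8% ± 2.22 and 42.8% ± 3.63, n = 3; two-sided exact permutation p = 0.1). The share of E2F3 was 38.2% ± 2.55 in control and 56.2% ± 3.89 with indomethacin. Of the 6 family shares compared, 5 had p = 0.1 and that of cyclin D1 had p = 0.2, which became 0.12 and 0.2 after Benjamini-Hochberg adjustment over the 6 exact permutation tests.

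When levels were set per kilobase of exons, so that genes could be compared, the order of the 10 genes changed between the groups. The length is that of all annotated exons of a gene, not of the transcript expressed, so the order depends on the annotation. In CPM without division by length, CDK6 (439) was above CCND1 (242) in control. In control it ran CCND1 (50.9 ± 4.90 CPM per kilobase), CDK6 (35.9 ± 3.33), CDK4 (22.3 ± 0.704), E2F1, CDKN1B, CDK2, RB1, CCND3, CDKN2C and CDKN1C (0.515 ± 0.242). Neighbours whose library values overlapped were E2F1 with CDKN1B and CDK2 with RB1. With indomethacin it ran CDK6 (15.5 ± 5.15), CDK4 (14.3 ± 0.725), CDKN1B (13.6 ± 1.74), CCND1 (10.8 ± 3.32), RB1 (9.42 ± 0.800), E2F1, CDK2, CCND3, CDKN1C and CDKN2C (0.306 ± 0.124), and each of the first 4 overlapped with the next. Per kilobase, cyclin D1 thus went from the top, above the ranges of all other members, to the fourth place. Its range with indomethacin (7.57 to 14.2) overlapped those of CDK6, CDK4, CDKN1B and RB1. The range of RB1 (8.56 to 10.2) lay below those of CDK6, CDK4 and CDKN1B. CDKN2C went from above CDKN1C to below it.

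**Figure D4:**
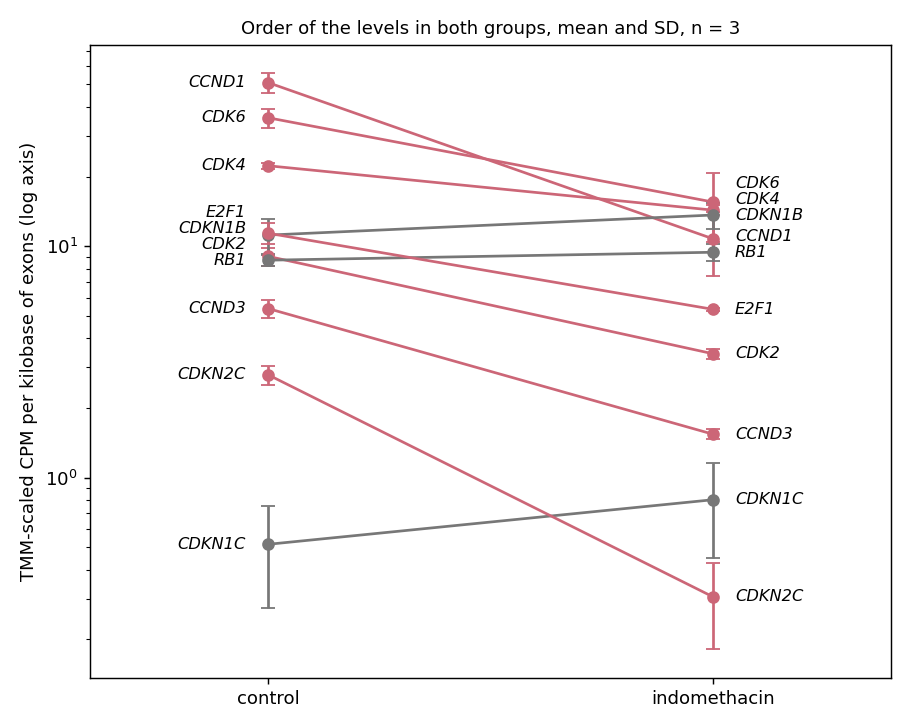
Mean CPM per kilobase of exons with SD (vertical log axis, n = 3) of the 10 genes in control and indomethacin libraries, joined by lines. Red lines are the 7 genes that fell and grey lines the 3 that did not pass, and CCND1 drops from the first place (50.9) to the fourth (10.8).

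Around the 10 genes, 72 further genes of the pathway were listed in 6 groups, and 69 of them were tested. Of these, 46 fell and 12 rose, with a median log2 fold change of -1.14. Over all genes tested 31.0% were lower and 30.6% higher, with a median of 0.04, and each list's counts below are to be read against those shares. The lists, too, were drawn up with earlier results known, so their counts are descriptions. The genes that fell ran from 4 of 4 tested among other G1 cyclins and kinases and 19 of 20 among E2F targets to 1 of 4 among other CDK inhibitors.

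Among 17 E2F partners, pocket proteins and DREAM complex subunits, which repress cell cycle genes in resting cells, 10 fell and 3 rose (median -0.41; all genes 31.0% lower, 30.6% higher). The atypical repressors E2F7 and E2F8 moved in opposite directions. E2F8 fell from 38.5 ± 1.02 to 2.05 ± 0.878 CPM (log2 fold change -4.24, edgeR adjusted p = 2.5e-09), and E2F7, which p53 also controls, rose from 12.9 ± 1.47 to 43.4 ± 2.07 CPM (1.75, edgeR adjusted p = 4.0e-08). TFDP1, the dimer partner that E2F1 needs to bind DNA, fell from 105.7 ± 8.36 to 33.6 ± 2.57 CPM (-1.65). The DREAM subunits did not move together: LIN9 (-1.18) and RBBP4 (-1.02) fell, LIN52 (-0.21, edgeR adjusted p = 0.30) did not pass, all 3 named after their values were seen. LIN37 (1.22) and LIN54 (0.40) were higher, LIN37 with 1180 of 2820 exonic bases against an antisense gene, and LIN54 did not pass without control replicate 1 (edgeR adjusted p = 0.067) or indomethacin replicate 3 (0.053) or with no filter (0.063).

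Of 9 genes of CDK activation, 4 fell and 3 rose (median -0.24). With 31.0% of all genes lower and 30.6% higher, these counts lie near the background. The phosphatase CDC25A, which removes the inhibitory phosphate from CDK2, fell from 27.9 ± 3.30 to 6.55 ± 0.378 CPM (log2 fold change -2.09, edgeR adjusted p = 2.7e-08), and its mitotic relative CDC25C had a log2 fold change of -2.34. The kinase gene PKMYT1 (-1.12) fell as well, with 1228 of its 4974 exonic bases against PAQR4. The 3 subunits of the CDK-activating kinase did not move together: CDK7 (0.60) and CCNH (0.37) were higher and the assembly factor MNAT1 (-0.53) was lower. CCNH was not called without control replicate 3 (edgeR adjusted p = 0.098), with no filter (0.16) or with DESeq2 (0.061), and CDC25B (0.51) was the remaining gene that rose. CCNH shares 771 of 5981 exonic bases with RASA1 on the other strand and is uncertain.

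Of 15 genes that act in the turnover of cyclins and inhibitors, 8 fell and 2 rose (median -0.26). Calls in either direction were about as frequent as the 61.6% among all genes. SKP2, the ubiquitin ligase subunit that marks p27 for degradation, fell from 40.4 ± 4.35 to 12.0 ± 0.551 CPM (log2 fold change -1.75, edgeR adjusted p = 4.3e-08). FBXO5 (-2.68), an inhibitor of the anaphase-promoting complex, and CKS2 (-1.66), a CDK-binding subunit, fell too. FBXW7, which recognises cyclin E, rose from 34.1 ± 2.09 to 86.5 ± 4.13 CPM (1.34, edgeR adjusted p = 1.0e-07), and FBXO31, described to act on cyclin D1, rose by 0.83 on the log2 scale (edgeR adjusted p = 9.2e-05). FBXO4 (-0.95), also described to act on cyclin D1, fell, as did SKP1 (-0.35), CUL1 (-0.26) and RBX1 (-1.14), the core subunits with which FBXW7 and SKP2 form ligases, while AMBRA1 (0.10, edgeR adjusted p = 0.52) did not pass. CUL1 and SKP1 did not pass with upper-quartile factors (edgeR adjusted p = 0.23 and 0.073) or without indomethacin replicate 2 (0.12 and 0.068), nor did CUL1 without control replicate 3 (0.067) or with the filter of 1 CPM in 3 libraries (0.070). These 5 genes were added after their values were seen.

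Of 20 E2F target genes, all of them tested, 19 fell and 1 was higher (median -2.32), against 31.0% lower and 30.6% higher among all genes. The helicase subunits MCM2 (log2 fold change -2.87), MCM3 (-2.79) and MCM4 (-3.22) and the replication factor GINS1 (-3.27) had the smallest adjusted p-values, none over 1.3e-09 by edgeR. CDC6, the exception, was at 81.3, 65.9 and 76.3 CPM in control and 74.1, 105 and 191 CPM in indomethacin libraries, so the groups overlapped. Its call (log2 fold change 0.73, edgeR adjusted p = 0.019) was lost without control replicate 2 (0.075), control replicate 3 (0.051) or indomethacin replicate 3 (0.13, log2 fold change 0.26), and with DESeq2 (adjusted p = 0.21).

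**Figure D5:**
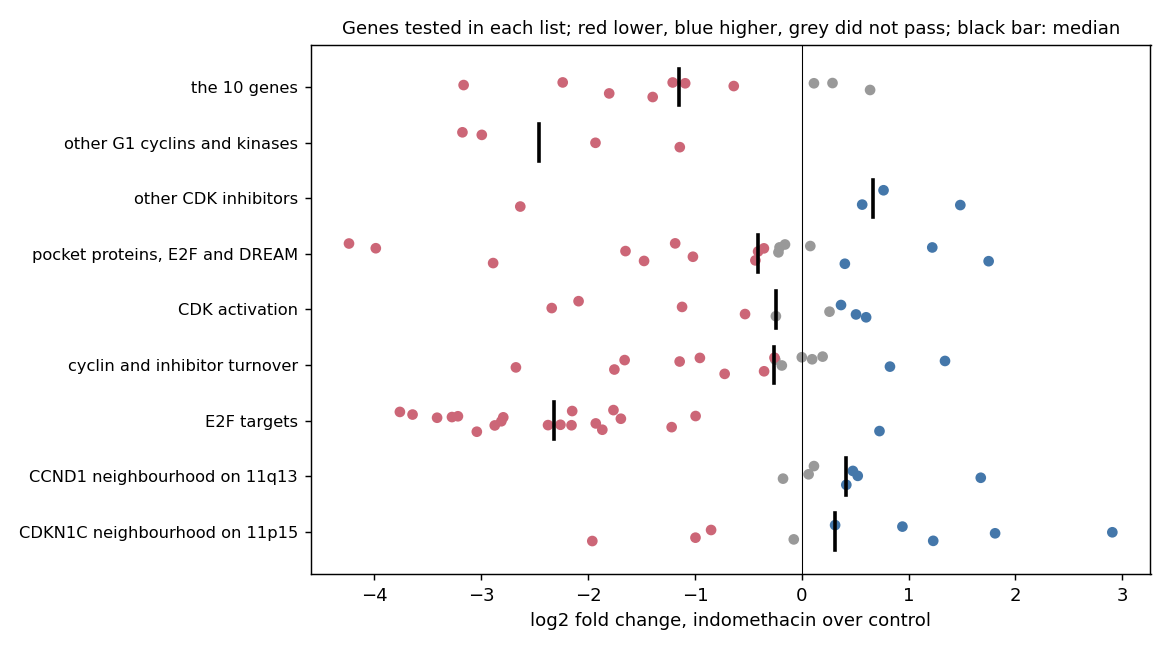
Log2 fold change of indomethacin over control (horizontal axis) for each gene tested of the 10 genes, the 6 pathway lists and 2 lists of chromosomal neighbours, with the median as a black bar. Red points fell, blue points rose and grey points did not pass. The E2F targets lie furthest left with the other G1 cyclins and kinases (medians -2.32 and -2.46), and the other CDK inhibitors lie to the right (0.67).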

How the data were processed

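Ribosomal RNA was depleted before stranded libraries were made, per the labels' protocols. The authors deposited raw counts per gene, 1 table per library. Trimming with cutadapt 1.16, HISAT2 2.1.0, featureCounts and build hg38 are named per the submitters' processing notes; strand setting, multi-mapping reads and annotation release are not given in the sources used here, which makes genes with overlapping exons uncertain. The broken line of 1 gene (3 of 60607 lines) was left out. Symbols covered 60462 of 60604 identifiers.

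Genes passing filterByExpr were scaled by TMM and tested with edgeR 4.0.16 (R 4.3.3; glmQLFit, glmQLFTest), group as the only term, Benjamini-Hochberg over all genes, threshold 0.05. Family shares used CPM per kilobase of the deposited gene length and exact permutation tests. Tests were tested on simulated data. No replicates were near-identical (chi-square of their counts over its degrees of freedom, 6.99 to 21.9). Alternatives were limma-voom 3.58.1, DESeq2 1.42.0, RLE and upper-quartile factors, 2 other filters, removal of mitochondrial and small structured RNAs, a replicate block and each library left out. Named were the 10 genes, their families, and of each list up to 4 genes with the smallest adjusted p and any against its majority. Genes and lists were chosen with earlier results of these data known.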

Additional observations from a re-analysis of the deposited data

How the results depend on the processing

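The 7 genes that fell were lower and past the threshold under all 14 alternatives, and CDKN1C and RB1 did not pass under any. CDKN1B, not called in the reported fit, passed as higher with upper-quartile factors (log2 fold change 0.40), with a filter of 1 CPM in 3 libraries (0.33) and without control replicate 1 (0.38), so that 1 of the 10 genes was higher under each of these in place of 0; over the libraries left out in turn its log2 fold change ran from 0.17 to 0.38. Upper-quartile factors moved the median of all genes by 0.12 and no filter by -0.11 on the log2 scale, relative to which these values should be read; the cause of the changes was not tested. The number of E2F targets called higher was 0 with DESeq2 and 0 to 1 with a library left out, and that of other CDK inhibitors was 1 to 3. Leaving out libraries moved the log2 fold change of CDK6 between -1.52 and -1.03, that of CCND1 between -2.51 and -2.05 and that of CDKN2C between -3.58 and -2.92. AMBRA1, which did not pass, changed sign with no filter (-0.00894) and without control replicate 1 (-0.0435). Without division by length the share of CDKN1B fell by 16.4 percentage points in place of 8.22, and that of CDK6 by 6.12 in place of 10.5. Without indomethacin replicate 3 the share of cyclin D1 fell by 1.36 points in place of 3.54. Whether the replicate numbers pair the libraries was not tested. Same-numbered libraries had deviations correlated at 0.02, 0.01 and 0.13, and differently numbered ones at -0.14 to 0.13. Control replicates 1 and 3 and indomethacin replicates 2 and 3 correlated best with their own number. Control replicate 2 and indomethacin replicate 1 correlated best with each other (0.13). With the replicate number as a block, 5249 genes were higher and 5352 lower, against 5264 and 5327, and 7 of the 10 genes were lower. Counting error is widest for CDKN2C with indomethacin (54 counts in all), CDKN2A and CCND2; for CDKN1C the spread between libraries exceeds it.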

Other observations

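Of 10 listed chromosomal neighbours of CCND1 on 11q13, 7 were tested, and 4 were higher and 0 lower by edgeR (median log2 fold change 0.42). Among all genes tested 30.6% were higher and 31.0% lower. Calls in either direction were about as frequent as the 61.6% among all genes. The chloride channel gene ANO1, often co-amplified with CCND1 in tumours, rose from 8.77 ± 1.18 to 28.0 ± 4.52 CPM (log2 fold change 1.68, edgeR adjusted p = 5.5e-07), and PPFIA1 from 49.6 ± 3.44 to 69.1 ± 6.50 CPM (0.48). LTO1, which overlaps CCND1 on the other strand, was at 8.29 ± 0.978 and 11.9 ± 0.762 CPM (0.52, edgeR adjusted p = 0.0084), but did not pass without control replicate 1 (0.057) or with no filter (0.054). MYEOV (0.42) overlapped between groups and its call was lost without any 1 of control replicates 2 and 3 and indomethacin replicates 1 and 2 (edgeR adjusted p = 0.13 to 0.14) or with DESeq2 (0.087).

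Around CDKN1C on 11p15, an imprinted domain, 9 of 10 listed genes were tested, of which 5 rose and 3 fell, against 30.6% higher and 31.0% lower among all genes. KCNQ1OT1, the long non-coding RNA that silences neighbours in cis on the paternal chromosome, rose from 71.2 ± 10.2 to 167 ± 1.61 CPM (log2 fold change 1.23, edgeR adjusted p = 6.9e-07). PHLDA2, like CDKN1C a maternally expressed gene of this domain, rose from 2.31 ± 0.0873 to 17.3 ± 6.67 CPM (2.91, edgeR adjusted p = 3.2e-07), and SLC22A18 from 3.94 ± 0.852 to 13.9 ± 1.66 CPM (1.81). H19, the imprinted RNA of the neighbouring domain, fell from 38.3 ± 3.82 to 9.92 ± 3.71 CPM (-1.96, edgeR adjusted p = 2.6e-06), and CD81 (-0.99) and KCNQ1 (-0.85) fell too. KCNQ1 shares 121 of 4420 exonic bases with KCNQ1OT1.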
